A study of Mus musculus with 4 samples.

Results

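TRIM proteins are a large family of ubiquitin ligases that share a tripartite motif, made of a RING finger, B-box zinc fingers and a coiled coil, followed by a C-terminal domain that differs between members. The RING finger recruits a ubiquitin-charged E2 enzyme, and the C-terminal domain picks the substrate. In striated muscle the family is best known for MuRF1 (Trim63), a ligase of thick filament proteins that is induced in atrophy, for Trim72 (MG53), which reseals torn membranes, and for Trim32, whose gene is mutated in a limb-girdle dystrophy. The genes described here are those whose symbol in the count table is Trim followed by a digit, with Trim63 left out. They number 38 of 13825 genes. The choice rests on the symbol alone, and Trim14, Trim16 and Trim44, which lack a RING finger, are among them.

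Tibialis anterior (TA) muscle was taken from adult male wild-type (WT) mice and from mice lacking Fgf21 in the whole body (Fgf21KO). A piece of the sciatic nerve had been removed on the left side, and the muscles were collected 14 days later. The right leg kept its nerve and gave the control muscle, named Sham in the sample titles. The paper's methods describe a sham operation on the opposite limb of the same mice. The comparisons ask how denervation changes muscle gene expression and whether the loss of Fgf21 alters that response. The libraries are called WS and WD for the sham and denervated muscle of WT mice, and KS and KD for those of Fgf21KO mice. Where 4 values are listed for a gene or sum, they stand in the order WS, WD, KS, KD. The WT mice of the study were C57BL/6J, and the ages of the sequenced mice are not given in the sources used here. RNA of 4 muscles was pooled for each group and sequenced as 1 stranded mRNA library, so nothing checks a pair of groups against the variation of replicates. Fgf21 itself was not analysed here, and the genotypes rest on the labels.

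Each library was represented by its reads per gene. The totals were 25249879, 29150147, 34141303 and 27740920 counts. These totals, and all percentages of counts and ranks of level, cover the 13825 genes only, and genes outside them could change each of these and the scaling by totals. Counts were scaled by edgeR's TMM factors, which set the bulk of genes to a log2 ratio near 0. Of the 38 TRIM genes, 37 had a mean of at least 10 counts over the libraries and entered the fits, as did 13084 genes in all. Trim34b missed that filter, with 6, 5, 12 and 9 counts. Of 64 TRIM symbols listed for this work, the other 26, among them the MuRF genes Trim54 and Trim55, were not analysed here.

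Levels differed widely within the family. RPKM values, which are counts per megaread of TMM-scaled library (CPM) divided by exon length in kilobases, were computed with TMM-scaled totals so that genes of different length could be set side by side. Trim72 stood highest, at 91.5, 104.5, 97.7 and 89.3 RPKM, which ranked it 358th by mean level among 13134 genes with a known length. Trim35, a ligase that binds the pyruvate kinase PKM2, came next at 38.5, 29.9, 34.7 and 26.3 RPKM. Below it lay Trim16, which binds galectin-3 at damaged endomembranes, at a mean of 21.5 RPKM. Trim28, the corepressor of KRAB zinc finger proteins, had a mean of 12.8 RPKM, and Trim7, a partner of the glycogen primer glycogenin, a mean of 11.4 RPKM. These 5 genes held 64.7%, 67.2%, 65.9% and 65.8% of the summed TRIM RPKM.

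The rest of the family was expressed at lower levels. Trim8, Trim41, Trim13, Trim44, Trim23 and Trim24 had means between 6.84 and 8.74 RPKM, close enough to each other that their order changed from library to library. At the other end, Trim36, Trim2, Trim59 and Trim34b had means of 0.0969, 0.112, 0.116 and 0.1495 RPKM. The median TRIM gene was at 2.37, 2.13, 2.55 and 2.31 RPKM. The median of all genes was higher in every library, between 3.15 and 3.25 RPKM. Summed over the family, the level was 254, 279, 258 and 263 RPKM, with Trim72 and Trim35 the largest parts by mean level.

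**Figure D1:**
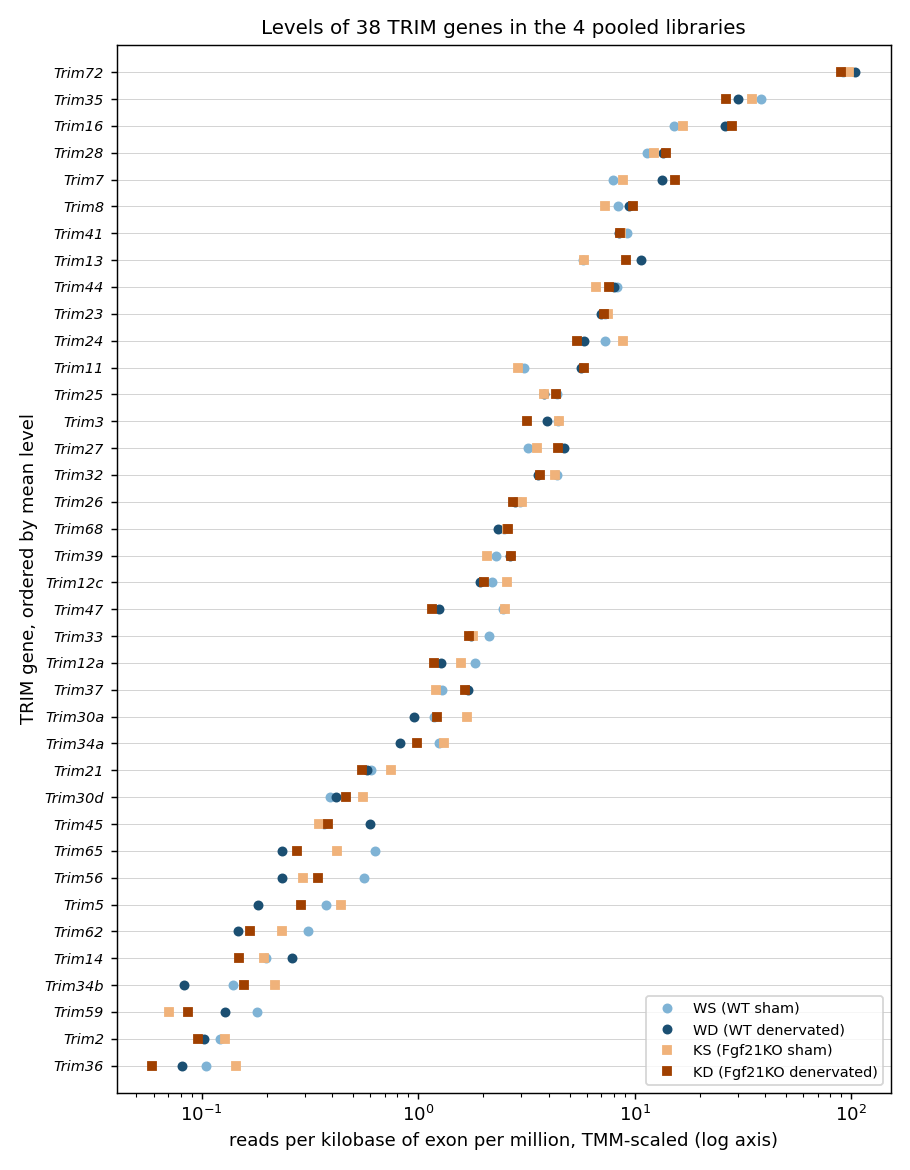
Level of each of the 38 TRIM genes in the 4 pooled libraries, in RPKM with TMM-scaled totals on a log axis, ordered by the mean of the libraries. Each point is 1 library. Trim72 lies near 95.8 and Trim36 near 0.0969 RPKM, and most genes have their 4 points close together compared with the distance between genes.

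Denervation was tested over all 4 libraries with edgeR (quasi-likelihood F-test). Genotype and surgery entered as additive terms, and p-values were adjusted by Benjamini-Hochberg over the 13084 genes. The model has 1 residual degree of freedom, and a positive log2 fold change means a higher level in denervated muscle. At an adjusted p under 0.05 and at least a 2-fold change, 2 TRIM genes fell, Trim47 and Trim65, against 6.24% of all genes. No TRIM gene rose by this criterion, against 6.84% of all genes, and DESeq2's Wald test likewise called 0 higher. Without the fold threshold, edgeR called 9 TRIM genes higher (24.3% of 37, against 26.6% of all genes) and 6 lower (16.2%, against 27%). At an unadjusted p under 0.05 the counts were 9 higher and 8 lower, against 29% each way. DESeq2 called 5 higher and 3 lower without the fold threshold, against 16.9% and 19% of all genes. The median log2 fold change of the 37 TRIM genes was -0.11, beside 0.0093 for all genes tested, and it turned to 0.21 when libraries were scaled by total counts only. The share that rose was near the background, and the changes of the family were mostly under 2-fold. In bulk tissue, fewer cells of a type and less RNA per cell cannot be told apart.

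These directions are relative to the bulk of genes, and they depend on the scaling. With total counts in place of TMM, the median log2 ratio of all genes moved to 0.29 for WD vs WS and to 0.36 for KD vs KS. On that scale 15 TRIM genes rose and 1, Trim47, fell, without a fold threshold, where 46.7% of all genes rose and 12.8% fell. The 9 genes that rose with TMM were among the 15. The other 5 genes that fell with TMM had adjusted p-values of edgeR's test from 0.0671 (Trim65) to 0.973 (Trim3) on total counts, with log2 fold changes still below 0. Mitochondrially encoded genes took 27.3%, 19.6%, 30.8% and 20.8% of the counts. Whether this share bears on the gap between the 2 scalings was not tested.

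A set of 4 genes rose by a similar amount in both genotypes, all by less than 2-fold over the 4 libraries. Trim11, a ligase of nuclear protein quality control, had 255, 663, 309 and 647 counts. Both denervated libraries lay well above both sham libraries, and the log2 fold change was 0.95 (SE 0.12, adjusted p = 1.01e-07 by edgeR). Trim7 had 1401, 3323, 1994 and 3619 counts, a log2 fold change of 0.78 (SE 0.075, adjusted p = 5.27e-10 by edgeR). For Trim16 the counts were 1613, 3895, 2260 and 3986, and the log2 fold change was 0.77 (SE 0.074, adjusted p = 4.95e-10 by edgeR). Trim13, which sits in the membrane of the endoplasmic reticulum, had 222, 575, 285 and 466 counts. Its log2 fold change was 0.76 (SE 0.13, adjusted p = 1.09e-05 by edgeR). All 4 passed 2-fold when libraries were scaled by total counts only.

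The log2 ratios of these 4 genes were close in the 2 genotypes. For Trim16 the ratio was 0.78 (95% interval 0.70 to 0.87) for WD vs WS and 0.76 (0.69 to 0.84) for KD vs KS. Intervals of single ratios cover counting error only, and not the spread between mice. Trim7 gave 0.75 (0.66 to 0.85) and 0.80 (0.72 to 0.88), and Trim11 gave 0.88 (0.68 to 1.10) and 1.003 (0.81 to 1.21). Trim13 gave 0.88 (0.66 to 1.11) in WT and 0.65 (0.44 to 0.87) in Fgf21KO. In each case the intervals of the 2 genotypes overlapped.

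The other 5 genes that rose changed less. Trim27, a ligase with a substrate-binding SPRY domain, had 412, 844, 578 and 756 counts, with a log2 fold change of 0.43. Trim37, a ligase of peroxisomes and centrosomes that carries a MATH domain, had 215, 402, 258 and 368 counts, and also changed by 0.43. Both were higher in each denervated library than in either sham library after scaling. Trim8 had 723, 1143, 802 and 1128 counts, with a log2 fold change of 0.30. Trim39 had 385, 625, 444 and 597 counts, with a log2 fold change of 0.29. Trim28 had 1102, 1830, 1511 and 1787 counts, with a log2 fold change of 0.21. The adjusted p-values of these 5 genes ran from 0.00105 (Trim27) to 0.0341 (Trim39) in edgeR's test. Of these 5, DESeq2's Wald test called Trim27 only.

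Trim47 and Trim65, neighbouring SPRY-domain genes on chromosome 11, had the lowest fold changes of the family. Trim47 had 156, 112, 204 and 98 counts, which is 6.72, 3.43, 6.87 and 3.17 CPM. The 2 denervated libraries were alike and lay at about the same distance below the 2 sham libraries. Its log2 fold change was -1.04 (SE 0.20, adjusted p = 6.08e-05 by edgeR). Trim65, whose product ubiquitinates the RNA sensor MDA5 (Ifih1), had 86, 45, 74 and 50 counts, a log2 fold change of -1.02 (SE 0.29, adjusted p = 0.00415 by edgeR). Its adjusted p was 0.0827 with DESeq2's Wald test, which leaves it uncalled by that tool. The 2 genes share 225 bases of exon on the same strand in GENCODE M21, so reads there could have been given to either gene, and the split of their counts is uncertain.

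Another 4 genes fell by less than 2-fold. Trim35 had 4130, 4508, 4756 and 3758 counts, and its level went from 178 CPM in WS to 138 in WD and from 160 in KS to 121 in KD. The log2 fold change was -0.38 (SE 0.071, adjusted p = 4.24e-05 by edgeR). Trim24, a coregulator of nuclear receptors, had 1438, 1616, 2241 and 1427 counts, with a log2 fold change of -0.52 (SE 0.087, adjusted p = 9.77e-06 by edgeR). Its level was highest in KS, at 75.5 CPM, beside 61.9 in WS, 49.5 in WD and 46.1 in KD. Trim12a, a member of the mouse Trim5 group, had 245, 241, 272 and 211 counts, and changed by -0.47 (adjusted p = 0.00987 by edgeR). Trim3, an NHL-repeat ligase known from neurons, had 471, 590, 604 and 449 counts, and changed by -0.33 (adjusted p = 0.0188 by edgeR). For Trim3 the WD vs WS log2 ratio of -0.17 became 0.12 on total counts.

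**Figure D2:**
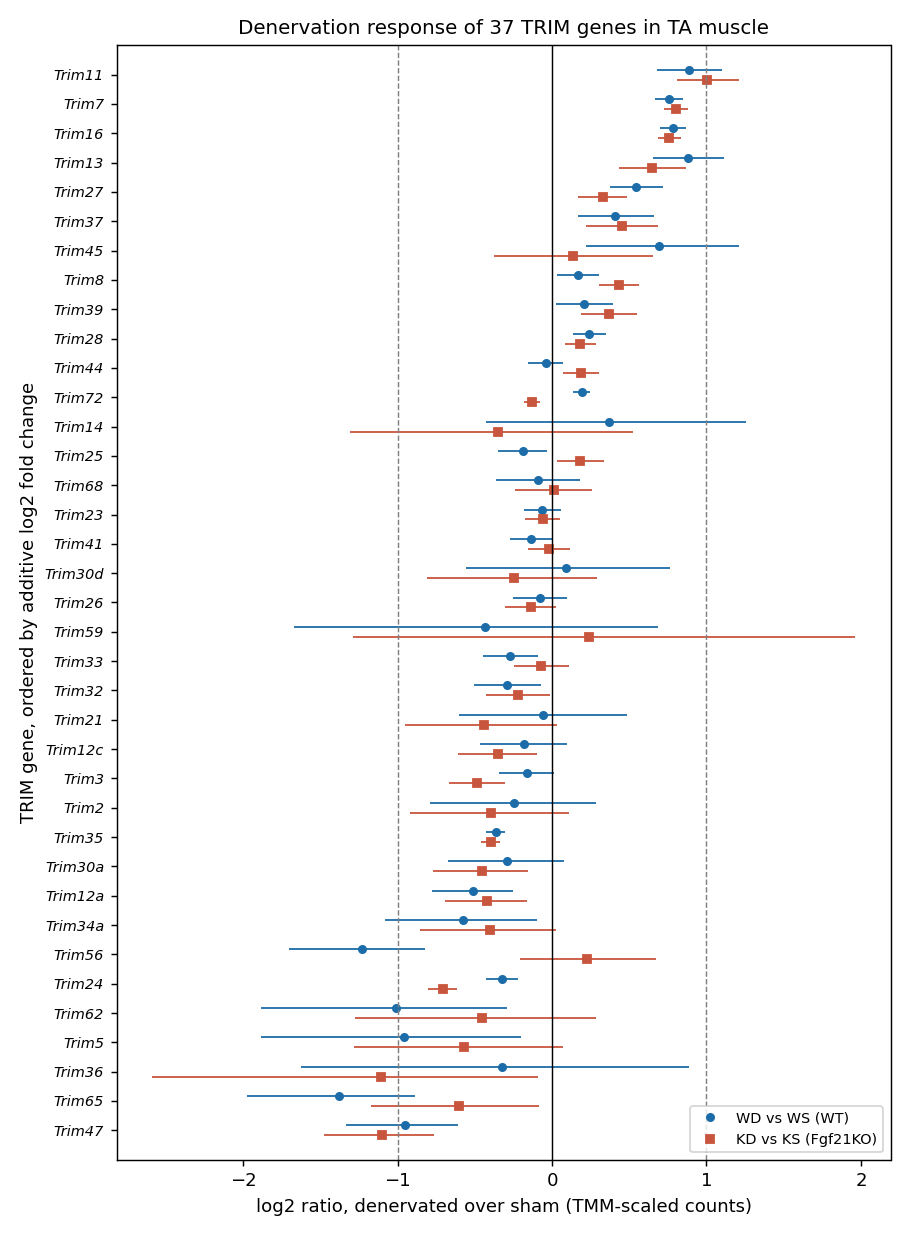
Log2 ratio of denervated over sham for the 37 TRIM genes with a mean of at least 10 counts, from TMM-scaled counts, in WT (circles, WD vs WS) and Fgf21KO (squares, KD vs KS). Lines are 95% intervals of counting error and dashed lines mark 2-fold. Trim11, Trim7, Trim16 and Trim13 lie at the top with both genotypes between 0.65 and 1.003. On total counts the median of all genes lies at 0.29 (WD vs WS) and 0.36 (KD vs KS), and of the ratios whose interval excludes 0, Trim25 and Trim33 for WD vs WS and Trim12c, Trim32 and Trim72 for KD vs KS change sign.

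Sorted by C-terminal domain, the genes that changed were spread over the family. Of 22 tested members with a SPRY domain, 5 rose, 4 fell and 13 did not pass the test, with a median log2 fold change of -0.10 that turned to 0.22 on total counts. The shares of all genes were 26.6% higher and 27% lower. DESeq2 called 4 and 2 of the 22, against 16.9% and 19% of all genes. On total counts 8 of the 22 rose and 1 fell, where 46.7% of all genes rose and 12.8% fell. Of the 3 members with a PHD finger and bromodomain, which act on chromatin, Trim28 rose, Trim24 fell and Trim33 had a log2 fold change of -0.17, or 0.15 on total counts. Of the 4 members with NHL or filamin repeats, 1 fell (Trim3) and 0 rose by edgeR, with 0 higher at an unadjusted p under 0.05. DESeq2 called 0 of the 4 in either direction, and on total counts edgeR called Trim45 higher and 0 lower. Of 7 members with other C-termini, 3 rose (Trim8, Trim13 and Trim37) and 0 fell by edgeR, with 0 lower at an unadjusted p under 0.05. DESeq2 called only Trim13 of these 7, and 0 lower, while on total counts 5 rose, with Trim23 and Trim44 added. The median log2 fold change of the NHL and filamin group was -0.29, or 0.03 on total counts. The single tested member with a COS box, Trim36, had 12, 13, 21 and 9 counts.

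The members best known in muscle did not pass the test of denervation with TMM, though Trim72 rose on total counts (log2 fold change 0.35, adjusted p = 0.00120 by edgeR). Trim72 had 4749, 7618, 6478 and 6169 counts, with a log2 fold change of 0.03 (SE 0.076, adjusted p = 0.760 by edgeR). In CPM it was highest in WD at 233 and lowest in KD at 199, with 204 in WS and 218 in KS. The log2 ratio was 0.19 (0.14 to 0.24) for WD vs WS and -0.13 (-0.18 to -0.08) for KD vs KS, the latter becoming 0.23 on total counts. Trim32 had 329, 378, 409 and 365 counts, a log2 fold change of -0.26 (SE 0.13, adjusted p = 0.0895 by edgeR). Its sham levels of 14.2 CPM in WS and 13.8 in KS lay above the 11.6 in WD and 11.8 in KD, and on total counts its log2 fold change was 0.07. Trim62 had 36, 24, 35 and 26 counts, too few for more than a rough estimate. Its log2 ratio was -1.01 (-1.88 to -0.29) for WD vs WS and -0.46 (-1.28 to 0.29) for KD vs KS, with an adjusted p of 0.0836 by edgeR.

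Counted by single pairs of libraries, few members lay 2-fold apart. In WD vs WS, 3 of 37 were at least 2-fold lower, against 7.61% of all genes, and 0 were higher, against 7.18%. The 3 were Trim56, Trim62 and Trim65, and Trim5 lay just short, with 32, 22, 48 and 33 counts and a log2 ratio of -0.96 (-1.88 to -0.20). In KD vs KS, Trim11 was at least 2-fold higher, against 7.51% of all genes. Trim36 and Trim47 were at least 2-fold lower in KD vs KS, against 6.1%. The Trim36 log2 ratio of -1.11 had an interval from -2.59 to -0.09, since it rests on 21 and 9 counts. Trim47 was on either side of 2-fold in the 2 genotypes, at -0.95 for WD vs WS and -1.10 for KD vs KS, so that only 1 of them counts. These pairs of libraries were not tested. The median log2 ratio of the 37 members was -0.13 in each genotype, beside 0.0076 and 0.0098 for all genes, and it became 0.15 and 0.23 on total counts.

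Few of all genes were called by genotype, and no TRIM gene was among them. In the same edgeR fit, 0 TRIM genes were higher and 0 lower by genotype at an adjusted p under 0.05, where 0.313% and 0.359% of all genes were. With the 2-fold criterion the background was 0.0611% higher and 0.115% lower. At an unadjusted p under 0.05 edgeR gave 2 higher in Fgf21KO, Trim7 and Trim30a, and 2 lower, Trim35 and Trim44, against 3.39% and 4.53% of all genes, and DESeq2 called 0 in either direction. On total counts edgeR gave 0 higher and 2 lower at that unadjusted threshold. Trim30a had 113, 129, 205 and 155 counts, with a log2 fold change by genotype of 0.42 (SE 0.19, adjusted p = 0.579 by edgeR). In KS vs WS no member was at least 2-fold higher, against 0.887% of all genes, and Trim59 was at least 2-fold lower, against 1.15%. Trim59 had 14, 14, 7 and 9 counts, and its log2 ratio of -1.14 in KS vs WS had an interval from -2.90 to 0.05. In KD vs WD, 0 members were at least 2-fold higher and 0 lower, against 0.841% and 0.711% of all genes. The pairs KS vs WS and WD vs WS share the WS library, so their ratios are not independent. The fit treated the sham and denervated libraries of a genotype as independent, though the paper's methods describe both limbs of the same mice.

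Trim56, a ligase of antiviral signalling, was the member whose denervation ratios lay farthest apart in the 2 genotypes. It had 121, 71, 81 and 99 counts, which is 5.21, 2.17, 2.73 and 3.20 CPM. WS stood above the other 3 libraries. The log2 ratio was -1.23 (-1.70 to -0.83) for WD vs WS and 0.23 (-0.21 to 0.67) for KD vs KS, a difference of 1.46 (0.89 to 2.09). A difference of at least 1 in this direction was found for 1 member and for 2.35% of all genes. In the other direction it was found for 0 members and for 1.76% of all genes. The ratio of the sham libraries, KS vs WS, was -0.92 (-1.36 to -0.52) for Trim56, so the sham libraries differed by more than the denervated ones, at 0.54 (0.10 to 1.02) in KD vs WD.

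The counting interval of the difference lay away from 0 for 8 members, Trim56, Trim65, Trim24, Trim72, Trim25, Trim8, Trim3 and Trim44, and for 30.1% of all genes. Trim24 had a denervation log2 ratio of -0.32 (-0.43 to -0.22) in WT and -0.71 (-0.81 to -0.61) in Fgf21KO, a difference of -0.39 (-0.53 to -0.25). Trim65, on 86 counts or fewer in each library, gave -1.38 (-1.98 to -0.89) in WT and -0.60 (-1.17 to -0.09) in Fgf21KO, a difference of 0.78 (0.07 to 1.54). Trim8 gave 0.17 (0.03 to 0.31) in WT and 0.43 (0.30 to 0.57) in Fgf21KO. For Trim3 the difference was -0.32 (-0.57 to -0.07), for Trim44 0.23 (0.07 to 0.39) and for Trim72 -0.32 (-0.39 to -0.25). Trim25, which activates the RNA sensor RIG-I, had 583, 718, 654 and 773 counts. Its log2 ratio was -0.19 (-0.35 to -0.03) for WD vs WS and 0.18 (0.03 to 0.34) for KD vs KS, the former becoming 0.09 on total counts. In the additive fit Trim25 rose with denervation on total counts (log2 fold change 0.32, adjusted p = 0.0399 by edgeR). With 1 library per group the interaction of genotype and denervation could not be tested.

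The members that remain did not pass the test with TMM, though Trim23, Trim41, Trim44 and Trim45 rose on total counts. Trim41 and Trim23, the latter a ligase that also carries an ARF-type GTPase domain, had denervation log2 fold changes of -0.08 and -0.06. Trim44, Trim68, Trim26 and Trim33 had log2 fold changes of 0.07, -0.04, -0.11 and -0.17, and all 4 were above 0 on total counts. Trim45, with filamin repeats, had 51, 117, 62 and 71 counts. It was high in WD alone, with a log2 ratio of 0.69 (0.22 to 1.21) for WD vs WS and 0.13 (-0.38 to 0.65) for KD vs KS. Trim2, Trim14 and Trim21, the last an antibody receptor of the cytosol, had between 20 and 83 counts in each library. Their additive log2 fold changes were -0.33, 0.03 and -0.27, with standard errors from 0.28 to 0.41.

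Position sets 1 group of members apart. By RefSeq, 7 of the 38 genes lie in a run on chromosome 7, each within 1 Mb of the next, in the order Trim34a, Trim5, Trim12a, Trim34b, Trim12c, Trim30a and Trim30d. These are the mouse relatives of human TRIM5 and TRIM34, whose products restrict retroviruses, and many are induced by interferon. With TMM, 24 of all 37 TRIM genes tested had denervation log2 fold changes below 0, and 13 on total counts. The median over all genes tested was 0.0093 with TMM. All 6 of the run that were tested were below 0 with TMM, from -0.79 (Trim5) to -0.09 (Trim30d). Only Trim12a passed the test, and it did not with total counts (-0.15, adjusted p = 0.419 by edgeR) or with DESeq2 (adjusted p = 0.131). On total counts Trim12c and Trim30d turned to 0.05 and 0.23. Trim34a had 75, 70, 101 and 79 counts. Trim30d had 34, 51, 62 and 54 counts. Trim12c had 190, 235, 287 and 234 counts. In TMM-scaled CPM, KS was the highest library for each gene of the run except Trim12a, which was highest in WS. Scaled by library totals instead, Trim34a, Trim12c and Trim30d were not highest in KS.

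Near-identical copies limit what can be said of single genes in this run. Of the distinct 100-base stretches in GENCODE M21 transcripts of Trim34a, 21.0% also occur in Trim34b, and the reverse share is 30.5%. Trim5 shares 6.64% of its stretches with Trim12c, which shares 7.02% with Trim5. Trim30a and Trim30d share 4.41% and 4.57% of their own stretches with each other, and Trim5 shares 3.09% with Trim12a. Reads from such stretches could have been split between genes or dropped, so the counts of these genes are uncertain. Among other members, 4.74% of the stretches of Trim47 occur in Trim65, where the transcripts overlap. Trim16 shares 237 exonic bases with Fbxw10 on the same strand, which strand cannot resolve, and Fbxw10 was not analysed here. Trim14 shares 1356 exonic bases with Nans on the opposite strand, Trim7 shares 140 with Gm12184 and Trim41 shares 31 with Rack1. Opposite-strand genes not analysed here share 617 bases with Trim72 (Gm15533), 609 with Trim34a (Gm47248) and 491 with Trim7 (Gm16170). The kit keeps strand, but whether the counting used it is not given in the sources used here.

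Promoters of the family were searched for 5 short motifs on both strands in the 250 bases before each start in RefSeq (GRCm38.p6), which held 39 promoters of 29 of the 38 genes. The interferon-stimulated response element, written as GAAA repeated after 2 free bases, was found in 5 of the 39 promoters (12.8%) and in 2.98% of all 32851 promoters. Its genes were Trim5, Trim12c, Trim30a and Trim30d from the run on chromosome 7, and Trim26. The E-box CAGCTG was in 28.2% of the TRIM promoters and 13.0% of all, and TATAAA in 7.69% and 12.4%. The 11 TRIM promoters with the E-box belong to 8 genes, Trim2, Trim5, Trim7, Trim12a, Trim12c, Trim26, Trim32 and Trim39. Trim2 and Trim39 were counted more than once among them. Neither the FoxO letters GTAAACA nor the MEF2 letters CTA and TAG 4 bases apart occurred in these TRIM windows, beside 3.17% and 3.2% of all promoters. The 60 bases before the start are shown for the 4 genes on chromosome 7 because their matches lie within 60 bases of the start, with Trim5 and Trim12c alike and Trim30a and Trim30d alike, beginning 49 bases before the start in Trim5, 29 in Trim12c, 36 in Trim30a and 41 in Trim30d. All 4 lie on the minus strand of GRCm38.p6, at chr7:104288107-104288166, chr7:104353350-104353409, chr7:104465194-104465253 and chr7:104507850-104507909, and read 5′ to 3′ with the match, in its reverse complement, in capitals. A match is a description of letters, and binding was not measured.
Trim5: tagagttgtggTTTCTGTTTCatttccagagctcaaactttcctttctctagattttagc
Trim12c: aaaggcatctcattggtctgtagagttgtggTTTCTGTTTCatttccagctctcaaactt
Trim30a: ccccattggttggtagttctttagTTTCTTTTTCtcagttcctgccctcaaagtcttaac
Trim30d: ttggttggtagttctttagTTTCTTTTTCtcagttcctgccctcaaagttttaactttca

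Other interferon-induced genes were looked at beside this run. Of 19 tested, 0 rose and 6 fell by edgeR, against 26.6% and 27% of all genes, with 0 higher at an unadjusted p under 0.05 and 0 higher by DESeq2. The genes that fell were Ifih1, Xaf1, Oas2, Isg15, Irf1 and Bst2. DESeq2 called only Ifih1 and Xaf1 lower, where it called 16.9% of all genes higher and 19% lower. Ifih1, the RNA sensor MDA5, had 220, 137, 250 and 131 counts, with a log2 fold change of -1.08 (adjusted p = 6.52e-06 by edgeR). Xaf1 changed by -0.99, Oas2 by -0.90, Isg15, a ubiquitin-like modifier, by -0.84 and Irf1 by -0.45. The list depends on the scaling, since its median log2 fold change of -0.28 turned to 0.04 on total counts. On that scale 3 of the 19 rose, and of the 6 only Ifih1 and Xaf1 still fell, against 46.7% and 12.8% of all genes. By genotype 0 of the 19 were called by edgeR or DESeq2, and at an unadjusted p under 0.05 edgeR gave 3 higher in Fgf21KO, against 3.39% of all genes.

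TRIM proteins and related proteins that carry other names were also present. Of 4 tested, Mid1 and Mid2, which bind microtubules through a COS box, rose and 1 fell by edgeR, against 26.6% and 27% of all genes. Mid1 had 156, 571, 177 and 439 counts, a log2 fold change of 1.32 (SE 0.14, adjusted p = 3.39e-09 by edgeR), which is above that of any Trim symbol tested. Mid2 had 218, 599, 318 and 646 counts, a log2 fold change of 0.97. Fsd1l fell by 0.32 but was not called on total counts or by DESeq2, and Pml, the organiser of nuclear bodies, had a log2 fold change of -0.23 (adjusted p = 0.282 by edgeR).

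Known partners and substrates of muscle TRIM proteins changed in both directions. Of 23 tested, 5 rose and 10 fell, beside 26.6% and 27% of all genes. Lgals3, the galectin-3 bound by TRIM16, had 33, 1095, 35 and 1460 counts, a log2 fold change of 4.97 (SE 0.16, adjusted p = 1.17e-20 by edgeR). Cbx5, the HP1 protein bound by TRIM28, rose by 1.02 on the log2 scale, while its relative Cbx3 had a log2 fold change of -0.56 and Setdb1 one of 0.17. The autophagy receptors Nbr1 and Sqstm1 rose, by 0.87 and 0.63. Dysf, the membrane repair protein dysferlin that works with TRIM72, rose by 0.46.

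Among those that fell, Srf had 2478, 1395, 3039 and 1354 counts, a log2 fold change of -1.27 (SE 0.077, adjusted p = 2.87e-14 by edgeR). Dlg4 changed by -1.03, on 30 to 89 counts in each library, and was not called on total counts or by DESeq2. Irs1, the insulin receptor substrate that TRIM72 marks for degradation, had 2201, 1717, 2354 and 1372 counts and changed by -0.84. The caveolar protein Cavin1 and the annexin Anxa6 changed by -0.66 and -0.61. Gyg, the glycogenin bound by TRIM7, had 10377, 11043, 14462 and 9785 counts and changed by -0.51, while Trim7 rose. On total counts 9 of the 23 rose and 7 fell, against 46.7% and 12.8% of all genes. DESeq2 called 5 higher and 7 lower, against 16.9% and 19% of all genes. No partner was called by genotype with edgeR or DESeq2, and at an unadjusted p under 0.05 edgeR gave 1 higher and 4 lower in Fgf21KO, against 3.39% and 4.53% of all genes.

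Of 15 E2 enzymes that TRIM ligases can use, 2 rose and 4 fell by edgeR, against 26.6% and 27% of all genes. DESeq2 called 0 higher, without Ube2e2 and Ube2v2, and 3 lower, against 16.9% and 19% of all genes. Ube2d1 had 4323, 3274, 6616 and 3197 counts, a log2 fold change of -1.0005 (SE 0.074, adjusted p = 2.66e-12 by edgeR). Its close relatives Ube2d2a and Ube2d3 did not pass the test, with 0.09 and -0.14. Ube2e1, Ube2e3 and Ube2j2 changed by -0.57, -0.43 and -0.21, while Ube2e2 and Ube2v2 rose by 0.74 and 0.29. On total counts 11 of the 15 rose, and Ube2d1 and Ube2e1 fell, against 46.7% and 12.8% of all genes. By genotype 0 were called by edgeR or DESeq2, and at an unadjusted p under 0.05 edgeR gave 2 higher in Fgf21KO, against 3.39% of all genes.

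The muscle identity of the libraries was plain, with Myh1 at 24303, 15651, 21603 and 17532 CPM. Of the 10 myofibre markers, only Myh1 and Mylpf are among the 13825 genes, both fell (on total counts only Mylpf did), and they summed to 33829.5, 20922.7, 31685.1 and 23091.1 CPM. Macrophage markers moved the other way, and 8 of 10 rose by edgeR, against 26.6% of all genes. DESeq2 called 3 of the 10 higher (Cd68, Lyz2 and Mrc1), against 16.9% of all genes. The 10 summed to 33.0, 71.5, 33.3 and 71.3 CPM, and none was at 0 in any library. Lyz2 was the most abundant, at 11.8, 22.5, 12.5 and 24.3 CPM. All 6 endothelial markers fell, where 27% of all genes did, from a sum of 534 CPM in WS to 238 in WD and from 435 in KS to 234 in KD, with Cdh5 the most abundant. Of 8 markers of fibro-adipogenic progenitors 6 fell, against 27% of all genes. Their sum went from 699 CPM in WS to 455 in WD and from 679 in KS to 470.1 in KD, with Col3a1 the most abundant. On total counts 5 of the endothelial and 3 of the progenitor markers (Col1a1, Ly6a and Cd34) fell, against 12.8% of all genes.

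Of 6 Schwann cell markers 3 were analysed and 2 fell, Mbp and Pmp22, against 27% of all genes. The 3 summed to 53.2, 22.1, 53.7 and 22.6 CPM. On total counts Mbp was not called. The 5 red blood cell genes all fell, against 27% of all genes, and 4 did on total counts, against 12.8%. Their sum went from 289 CPM in WS to 208 in WD and from 333 in KS to 170.2 in KD. Of 5 adipocyte markers 2 were analysed, and Fabp4 fell, from 225 CPM in WS to 157 in WD and from 229 in KS to 167 in KD. Vcam1, the 1 of 5 satellite cell markers analysed, had a log2 fold change of -0.26 and did not pass the test, and the 7 T and B cell markers were not analysed here. TMM and total counts gave these lists the same direction by their medians, except for Vcam1, which was at 0.06 on total counts. The 9 TRIM genes that rose and the 6 that fell did so in the same libraries as these markers, and so did the partners that changed, Lgals3 among them. The part of such cells in the values of TRIM genes and partners was not tested.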

How the data were processed

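The deposited table of counts holds reads per gene as integers, and per the submitters' processing notes the authors checked reads with FastQC and used the GRCm39 genome. The aligner and counter are not given in the sources used here. A second deposited table holds log2 values, and each of its values equals log2 of the count times a factor per library plus 1 (100% of genes within 0.1%). It served only as an alternative. Groups were taken from the labels. Members and lists were chosen with earlier results of these data known.

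Counts were analysed with edgeR 4.0.16 (R 4.3.3), and DESeq2 1.42.0 gave the alternative test. Intervals and tables were made in Python 3.11.15 using scipy 1.17.1. The additive edgeR model had a common biological coefficient of variation of 0.0681, estimated from the interaction as its 1 residual degree of freedom. Log2 ratios used CPM with a prior count of 2. Intervals of single ratios are Clopper-Pearson intervals of the split of the counts of 2 libraries, and intervals of a difference between ratios use a normal approximation on log counts. Standard errors were derived from the quasi-likelihood F value. A level of 3 counts, taken as the floor, is 0.129, 0.0919, 0.101 and 0.0970 CPM in the libraries. The fit was tested on simulated data, where it recovered 98.1% of 200 genes changed 4-fold and called at most 3 unchanged genes in each of 5 draws. Those data had 13084 genes, no genotype effect and the common coefficient of variation of the same fit. They do not show how the fit does with changes under 2-fold or with many genes changed.

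Any TRIM member could be named. Counts and ratios were to be given for members called in the additive fit, at least 2-fold apart or within 0.15 log2 of that, the 5 highest by level and those known in muscle, and of each list the called genes, up to 5 in each direction by fold change. Values of other members, and of Cbx3, Gyg, Setdb1, Ube2d2a and Ube2d3, and the name of Bst2, were added after seeing the data. Exon lengths, overlaps and shared stretches come from GENCODE M21 and neighbours and promoters from RefSeq, both on GRCm38, which is not the build of the counts, so coordinates are given for promoters only. A result on 1 item of the gene lists is not reported here.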

Additional observations from a re-analysis of the deposited data

Results flagged for a closer look

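For 8 of the 37 tested TRIM genes the log2 ratio of denervated over sham had opposite signs in WT and Fgf21KO, which is why they are listed. The same was so for 17.2% of all genes, and some of the 8 have ratios close to 0. Given as Fgf21KO minus WT, the differences were 1.46 for Trim56, -0.72 for Trim14, 0.67 for Trim59, 0.37 for Trim25, -0.34 for Trim30d, -0.32 for Trim72, 0.23 for Trim44 and 0.10 for Trim68. The counting intervals of both ratios lay away from 0 only for Trim25 and Trim72. A rule asking for that was used at first, and it was widened to any opposite signs after the values had been seen. On total counts Trim25, Trim30d, Trim44, Trim68 and Trim72 had ratios above 0 in both genotypes. On that scale 7 members had opposite signs (Trim2, Trim3, Trim14, Trim21, Trim32, Trim56 and Trim59), against 13.8% of all genes, so only Trim14, Trim56 and Trim59 met the rule on both scales. With 1 pooled library per group, none of these differences was tested.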

How the results depend on the processing

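The scaling and the fold threshold changed the counts of genes called in the additive fit most. With total counts only, 4 TRIM genes (Trim7, Trim11, Trim13 and Trim16) were at least 2-fold higher in the additive fit, and in the WD vs WS and KD vs KS ratios, in place of 0, 0 and 1, and 0, 1 (Trim65) and 0 were lower in place of 2, 3 and 2. The median log2 ratio of the TRIM genes became 0.148 for WD vs WS and 0.229 for KD vs KS. With no fold threshold the additive fit gave 9 higher and 6 lower, or 15 and 1 on total counts, a setting chosen after seeing the data. DESeq2's Wald test left 1 lower, Trim47. In KD vs KS, Trim11 was no longer 2-fold higher (0 genes) with DESeq2 size factors, a prior count of 5 or the deposited log2 table. The lower genes of KD vs KS became 1 under a mean count filter of 50 or a prior count of 5 and 0 with the deposited table, which also gave 0 lower in WD vs WS. Trim59 in KS vs WS was lost (0 genes) under a mean count filter of 50, a prior count of 5 or the deposited table. Ratios whose interval excluded 0 turned sign 5 times, all on total counts, to 0.093 for Trim25 and 0.0113 for Trim33 in WD vs WS and to 0.00498 for Trim12c, 0.135 for Trim32 and 0.229 for Trim72 in KD vs KS. A count within 1.5 times, a median within 0.1 or a single ratio inside its counting interval was taken as the same. So labelled, of the settings of summary results 103 were the same and 23 moved, and of those of single genes 967 were the same and 44 moved. No paired analysis was possible because muscles were pooled before sequencing, with 1 library per group, and no library could be left out. The spread between mice is unknown, the additive fit takes the interaction as its error, and genotype and surgery effects that depend on each other would inflate it. Counts of genes with shared or overlapping sequence are uncertain, cell types cannot be separated in whole muscle, and RNA levels do not give ligase activity. Where values depended on scaling, the cause was not tested.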
